A study of Mus musculus with 12 samples.

Results

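AP-1 is a dimeric transcription factor built from the Fos and Jun proteins, and 8 genes of this family were followed in mouse neutrophils and macrophages exposed to calcitonin gene-related peptide (CGRP). The members were *Fos*, *Fosb*, *Fosl1* and *Fosl2* (Fos proteins), *Jun*, *Junb* and *Jund* (Jun proteins), and *Batf*, a related protein that pairs with Jun. They were taken by gene name, and each name occurred once among the 52636 genes of both deposited count tables. Fos proteins bind DNA only when paired with a Jun protein, whereas Jun proteins also pair with each other, so the set of subunits a cell makes decides which dimers can form. Many of the genes are immediate early genes: kinase cascades and cAMP, the second messenger of the CGRP receptor, switch them on within minutes, and their short-lived RNAs then decay. In myeloid cells, AP-1 is known for its part in macrophage differentiation and in the transcription of cytokine and protease genes. CGRP is a neuropeptide released by pain-sensing neurons.

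The cells were flushed from the bone marrow of 8- to 12-week-old wild-type C57BL/6J mice and purified with magnetic kits. Neutrophils were used fresh, whereas monocytes were first grown for 3 days in 10 ng/ml M-CSF, under which they become macrophages; the sample labels call these cells monocytes/macrophages. Each cell type then received 1 nM CGRP or saline (PBS) for 4 h, with 3 libraries in each of the 4 groups and 12 in all. The labels number the libraries without saying whether they came from separate animals, so the p-values measure the spread between these libraries, which may be technical. Total counts per library lay between 2719556 and 3631989 in PBS neutrophils and between 2196558 and 3270388 in CGRP neutrophils. They lay between 2536415 and 3477069 in PBS macrophages and between 2002559 and 3259073 in CGRP macrophages. Levels are in CPM, the count of a gene scaled to a common library total, and a floor of 3 counts stood for between 0.826 and 1.498 CPM.

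The labelled cell types were checked against their markers. Counts for 10 neutrophil markers, led by *S100a8*, summed to between 162064 and 210413 CPM of the library total in the neutrophil libraries and to between 330 and 433 CPM in the macrophage libraries. Counts for 10 macrophage markers, led there by *C1qb*, summed to between 10798 and 13452 CPM in the macrophage libraries and to between 643 and 722 CPM in the neutrophil libraries. The neutrophil libraries also held RNA of other cells: erythroid markers, led by *Hbb-bs*, summed to between 5892 and 6798 CPM and eosinophil, basophil and mast cell markers, led by *Prg2*, to between 947 and 1079 CPM. In the macrophage libraries these came to at most 26.4 and 12.6 CPM. With bulk RNA, a change in the number of cells of a type and a change in the RNA per cell cannot be told apart.

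In GRCm38, *Fos* lies at chr12:85473890-85477273 on the plus strand, with *Batf* on the same strand at chr12:85686669-85709087. *Fosb* lies at chr7:19302696-19310051 (minus strand), *Fosl1* at chr19:5447547-5455946 (plus) and *Fosl2* at chr5:32135801-32157842 (plus). *Jun* (chr4:95049034-95052222, minus), *Junb* (chr8:84974484-84978718, minus) and *Jund* (chr8:70698949-70700616, plus) each have a longest coding transcript of 1 exon. Their Ensembl identifiers in the tables are ENSMUSG00000021250 (*Fos*), ENSMUSG00000003545 (*Fosb*), ENSMUSG00000024912 (*Fosl1*), ENSMUSG00000029135 (*Fosl2*), ENSMUSG00000052684 (*Jun*), ENSMUSG00000052837 (*Junb*), ENSMUSG00000071076 (*Jund*) and ENSMUSG00000034266 (*Batf*). The 4 genes that the results below turn on are *Fos*, *Junb*, *Jun* and *Fosl2*, each of which passed in macrophages. The 250 bases upstream of their RefSeq start sites (GRCm38.p6) are shown 5′ to 3′. Capitals mark matches to the core of the cAMP response element (TGACG), the site through which Jun protein is known to act on its own gene (TGACATCA), the CCAAT box (CCAAT) or the TATA box (TATAAA).
*Fos* promoter, chr12:85473640-85473889, plus strand: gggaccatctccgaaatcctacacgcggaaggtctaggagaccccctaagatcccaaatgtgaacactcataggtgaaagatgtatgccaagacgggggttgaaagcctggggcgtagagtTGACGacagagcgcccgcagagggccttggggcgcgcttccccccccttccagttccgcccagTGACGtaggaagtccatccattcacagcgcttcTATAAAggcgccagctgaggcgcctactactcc
*Junb* promoter, chr8:84978749-84978998, minus strand: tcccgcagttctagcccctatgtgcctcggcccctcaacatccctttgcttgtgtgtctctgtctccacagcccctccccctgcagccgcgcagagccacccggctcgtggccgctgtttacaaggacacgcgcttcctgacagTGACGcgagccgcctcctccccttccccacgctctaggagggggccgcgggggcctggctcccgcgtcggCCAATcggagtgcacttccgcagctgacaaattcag
*Jun* promoter, chr4:95052223-95052472, minus strand: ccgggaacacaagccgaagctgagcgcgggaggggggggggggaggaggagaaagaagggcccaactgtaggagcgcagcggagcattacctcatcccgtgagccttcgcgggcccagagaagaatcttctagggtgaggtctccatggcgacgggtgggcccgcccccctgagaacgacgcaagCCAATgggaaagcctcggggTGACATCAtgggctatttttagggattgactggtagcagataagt
*Fosl2* promoter, chr5:32136222-32136471, plus strand: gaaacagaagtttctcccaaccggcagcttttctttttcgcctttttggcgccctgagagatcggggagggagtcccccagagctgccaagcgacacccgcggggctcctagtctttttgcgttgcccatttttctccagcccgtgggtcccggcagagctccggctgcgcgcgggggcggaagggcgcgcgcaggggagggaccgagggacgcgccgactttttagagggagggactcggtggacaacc
The *Fos* window held TGACG 129 and 66 bases before the start site (first base of the match) and TATAAA 33 bases before it. *Junb* held TGACG at 106 and CCAAT at 36 bases before the start, with TATAAA at the start site itself. *Jun* held TGACATCA at 45 and CCAAT at 65 bases before the start, and no TGACG. *Fosl2* held none of the letters searched, but its RefSeq start lies 671 bases from the first base of the GENCODE gene. Among the members not printed, *Fosb* held TGACG at 60 and *Batf* at 98 bases before the start, and *Jund* held no match, in a window whose RefSeq start lies 1210 bases from the first base of the GENCODE gene. Both strands of the 300 bases around each start (250 before, 50 after) were searched, and neither the full cAMP response element (TGACGTCA) nor the classical AP-1 site (TGACTCA) was found in the 7 members with a RefSeq promoter. TGACG lies within TGACGTCA and overlaps it. Among 32851 mouse promoters of that length, TGACG occurred in 20.8%, TGACATCA in 3.62%, CCAAT in 37.4%, TATAAA in 13.6%, TGACGTCA in 1.79% and TGACTCA in 5.20%. The matches describe letters in the sequence and not bound sites, and their part in any response to CGRP was not tested. *Batf*, which holds TGACG, passed in neither cell type.

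**Figure D1:**
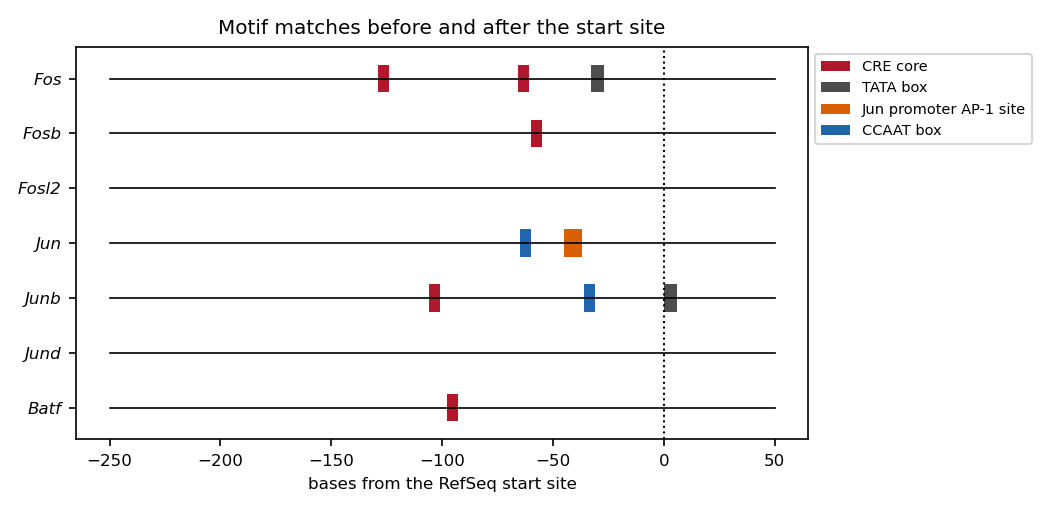
Motif matches in the promoters of the 7 AP-1 genes with a RefSeq promoter; the x axis gives bases from the start site (dotted line), each black line is the 300 bases searched and each coloured block is a match. *Fos* has 2 matches to the core of the cAMP response element, *Fosb*, *Junb* and *Batf* have 1 each, and *Fosl2* and *Jund* have no match to any motif searched.

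Reverse transcription started from the poly-A tail, so that the counts come mostly from the 3′ ends of the transcripts, where immediate early RNAs often carry AU-rich elements, sequences that mark an RNA for rapid decay. The AUUUA core (ATTTA in DNA letters) occurred 4 times in the 815-base 3′ UTR of *Fos*, 8 times in the 4653 bases of *Fosl2*, 4 times in the 1233 bases of *Jun* and 2 times in the 485 bases of *Junb*. *Fosb*, *Fosl1* and *Jund* had 1 each and *Batf* had 0, against a median of 1 over 20549 genes with an annotated 3′ UTR, whose median length was 967 bases. Per kilobase of 3′ UTR this came to 4.91 in *Fos*, 4.12 in *Junb*, 3.24 in *Jun*, 1.88 in *Jund* and 1.72 in *Fosl2*. It came to 1.57 in *Fosl1*, 0.466 in *Fosb* and 0 in *Batf*, beside a median of 1.27 over those genes. Of those genes, 36.0% held at least 3. The longer TTATTTATT, which contains ATTTA, occurred in *Fos* and *Fosl2* among the members and in 7.72% of those genes. The 30 bases with the most ATTTA (capitals) are shown for 3 of the members whose RNA moved most. Each of these windows holds 2, whereas the richest window of *Junb*, not shown, holds 1.
*Fos* 3′ UTR, bases 632 to 661: aacgtttttattgtgttttcaATTTATTTA
*Fosl2* 3′ UTR, bases 3669 to 3698: agaagaaattgacATTTAttttattATTTA
*Jun* 3′ UTR, bases 1028 to 1057: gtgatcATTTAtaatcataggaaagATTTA
Positions are counted from the base after the stop codon of the longest coding transcript in GENCODE M21. Whether RNA decay took part in any change described here was not measured.

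In neutrophils, *Fos* and *Junb* rose with CGRP. *Fosl1* also passed the test, but it passed the filter on low counts only through the CGRP libraries in which it was high, so its call is given as a description and supports nothing. With it, 3 of the 7 members tested passed, and over all 9819 genes tested 2.53% passed the same threshold (adjusted p under 0.05), 1.51% as higher and 1.02% as lower. The 248 genes that passed were 148 higher and 100 lower, or 150 higher and 64 lower without TMM scaling. None of the members passed as lower.

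*Fos*, the founding Fos protein and partner of Jun, stood at 48.0, 48.9 and 59.8 CPM in the PBS neutrophils and at 138, 137 and 108 CPM in the CGRP neutrophils. All CGRP libraries lay above all PBS libraries, and the lowest of them was replicate 3. The mean went from 52.2 ± 6.61 to 127 ± 17.3 CPM (SD, n = 3 each), with a fitted log2 fold change of 1.30 and an SE of 0.126 (adjusted p = 1.69e-06, limma-voom). *Junb*, a Jun protein that often restrains c-Jun, stood at 199, 189 and 221 CPM with PBS and at 241, 257 and 279 CPM with CGRP. The groups did not overlap here either, but the step was small, from 203 ± 16.0 to 259 ± 19.2 CPM (log2 fold change 0.35, SE 0.0899, adjusted p = 0.0390). The *Junb* call was lost with DESeq2 (adjusted p = 0.0578), without TMM scaling (0.0528) and in a single fit over all 12 libraries (0.273). It was also lost without PBS replicate 1 (0.183) or 2 (0.258) and without CGRP replicate 2 (0.109) or 3 (0.138).

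*Fosl1* encodes Fra-1, a Fos protein without the transactivating end of c-Fos. It had 4, 4 and 3 counts in the PBS neutrophils and 20, 13 and 12 counts in the CGRP neutrophils. The PBS libraries stood at the floor, so the fitted log2 fold change of 1.95 (SE 0.459, adjusted p = 0.0221) is not a measured size. A gene kept for its high CGRP counts is also more likely to differ, although being kept does not fix the call. The call was lost without any one of PBS replicates 1 (adjusted p = 0.170), 2 (0.170) or 3 (0.118) or CGRP replicates 1 (0.0967) or 3 (0.0551), with a filter of at least 10 counts in 1 library (0.0590) and in the single fit (0.101). The last 500 bases of *Fosl1* also lie within exons of *Ccdc85b* on the opposite strand, and the strand setting of the counting is not given in the sources used here, so reads of the 2 genes may not be separated. *Ccdc85b* itself had between 0 and 5 counts in every neutrophil library.

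The remaining members that could be tested did not pass in neutrophils. *Fosl2*, which encodes Fra-2, lay at 59.8, 60.8 and 64.1 CPM with PBS and at 63.7, 64.6 and 82.5 CPM with CGRP (log2 fold change 0.16, 95% interval -0.089 to 0.42, adjusted p = 0.643). *Jun*, which encodes c-Jun, lay at 56.1, 44.1 and 60.6 CPM with PBS and at 49.7, 41.7 and 54.4 CPM with CGRP (-0.14, interval -0.44 to 0.15, adjusted p = 0.755). The groups overlapped for both genes, and falls or rises within these intervals could not be resolved with 3 libraries a group. *Jund*, the Jun gene usually found at a steady level, had a log2 fold change of 0.01 (interval -0.39 to 0.42, adjusted p = 0.991). *Batf* had a mean of 18.3 ± 2.60 CPM with PBS and 15.8 ± 1.05 CPM with CGRP (-0.21, adjusted p = 0.724), and all its CGRP libraries lay below all PBS libraries. The gap was narrow, from 16.68 CPM in CGRP replicate 3 to 16.74 CPM in PBS replicate 3. Without TMM scaling, CGRP replicate 3 (17.3 CPM) lay above PBS replicate 1 (16.4 CPM), so the *Batf* groups overlapped. With TMM scaling, groups failed to overlap for 4 of the 7 tested members, 3 above (*Fosl1* among them) and 1 below (*Batf*). On the same scale they failed to overlap for 17.8% of all genes tested, 8.96% above and 8.83% below. *Fosb* had 6, 7 and 7 counts with PBS and 12, 3 and 3 counts with CGRP, too few to be tested.

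In macrophages, CGRP moved 4 of the 6 AP-1 genes that could be tested, and not in 1 direction: *Fosl2*, *Junb* and *Fos* rose while *Jun* fell. Of the 9393 genes tested, 7.43% passed, 3.46% as higher (325 genes) and 3.97% as lower (373 genes), or 245 and 405 genes without TMM scaling. The groups did not overlap for these 4 members, 3 above and 1 below, beside 24.1% of all genes tested, 11.9% above and 12.3% below.

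*Jun* stood at 197, 169 and 240 CPM in the PBS macrophages and at 64.2, 54.0 and 53.3 CPM in the CGRP macrophages. The highest CGRP library lay far below the lowest PBS library. The mean fell from 202 ± 35.9 to 57.2 ± 6.08 CPM, and the fitted level was 3.48-fold lower (-1.80 on the log2 scale, SE 0.164, adjusted p = 2.92e-06). *Fosl2* moved in the other direction, from 17.2, 13.6 and 21.2 CPM with PBS to 52.3, 71.2 and 57.4 CPM with CGRP. Its mean rose from 17.3 ± 3.78 to 60.3 ± 9.79 CPM (log2 fold change 1.81, SE 0.211, adjusted p = 3.22e-05), 3.51-fold in the fit, and every CGRP library lay above every PBS library.

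*Junb* stood at 181, 168 and 222 CPM with PBS and at 361, 386 and 459 CPM with CGRP. It rose from 190 ± 28.3 to 402 ± 51.0 CPM (log2 fold change 1.08, SE 0.144, adjusted p = 1.25e-04). *Fos* stood at 174, 148 and 159 CPM with PBS and at 288, 285 and 243 CPM with CGRP, and rose from 160 ± 13.2 to 272 ± 25.1 CPM (log2 fold change 0.77, SE 0.133, adjusted p = 1.49e-03). For both genes, no CGRP library fell within the range of the PBS libraries. The calls of *Jun*, *Fosl2*, *Junb* and *Fos* passed under each of the 9 other settings tried and without any single library.

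*Jund* did not pass in macrophages, with means of 29.7 ± 9.74 CPM with PBS and 30.2 ± 4.34 CPM with CGRP (log2 fold change 0.07, interval -0.41 to 0.55, adjusted p = 0.900). *Batf* had means of 19.5 ± 1.07 and 15.3 ± 2.81 CPM (-0.33, interval -0.80 to 0.15, adjusted p = 0.465), and its groups overlapped. *Fosb* had 0, 1 and 0 counts with PBS and 2, 4 and 3 counts with CGRP. *Fosl1* had 3, 4 and 3 counts with PBS and 9, 1 and 8 counts with CGRP. Neither passed the filter on low counts in macrophages, so neither was tested there, and the groups of *Fosb* did not overlap whereas those of *Fosl1* did. All *Fosb* counts there lay near or below the floor of 3 counts. The shares of non-overlapping genes given above cover tested genes only, so the *Fosb* separation is not read as a response to CGRP. *Ccdc85b*, which shares the 3′ end of *Fosl1*, had between 15 and 30 counts in these libraries.

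**Figure D2:**
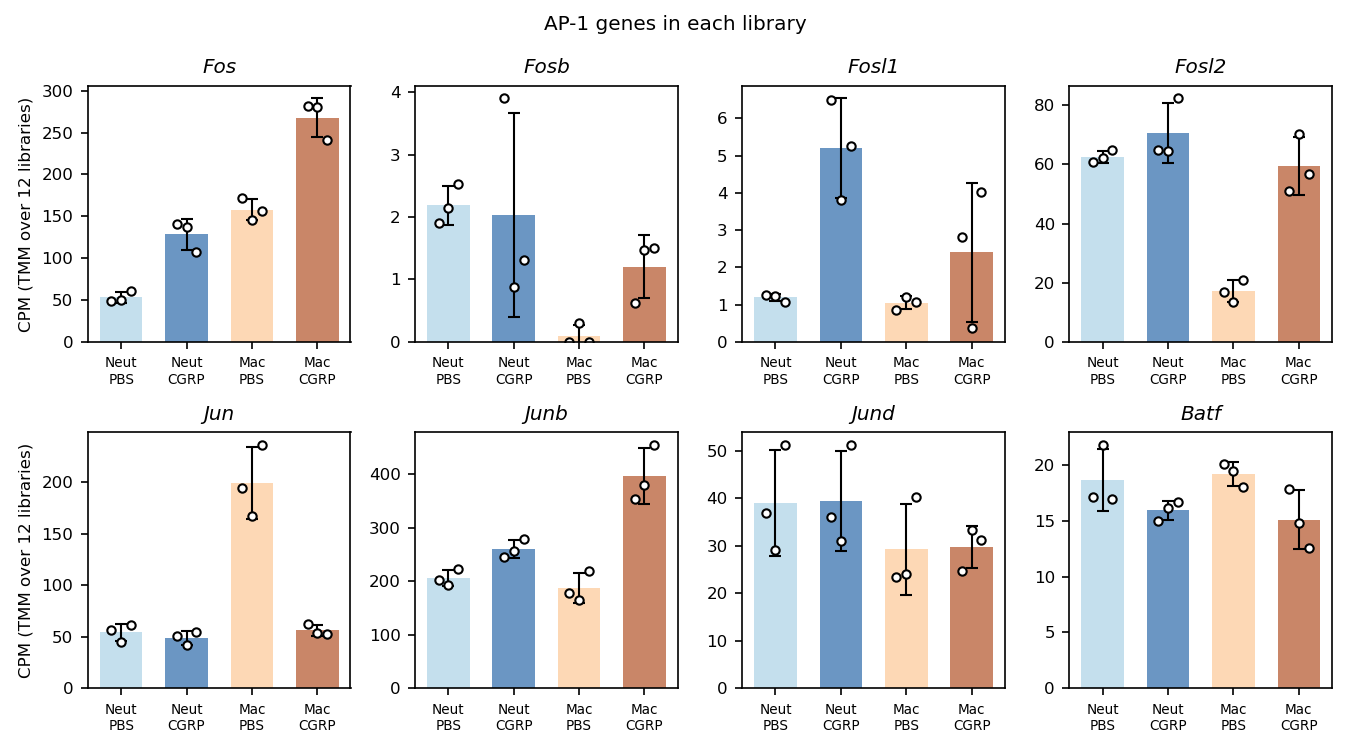
Level of the 8 AP-1 genes in each library, in CPM scaled by TMM over the 12 libraries (y axis, starting at 0); points are libraries, bars are means and error bars are SD (n = 3), and Neut and Mac stand for neutrophils and macrophages. *Jun* is high in the PBS macrophages alone, between 167 and 236 CPM, *Fosl2* is low in the same libraries, between 13.5 and 20.9 CPM, and *Fos* and *Junb* rise with CGRP in both cell types.

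The sums of some other lists also differed between these groups. In the macrophage libraries the neutrophil markers summed to 344, 378 and 330 CPM of the library total with PBS and to 433, 421 and 411 CPM with CGRP, without overlap. All 8 of these markers that could be tested there had positive log2 fold changes with CGRP (median 0.38), and *Ly6g* and *Cxcr2*, not tested, had at most 3 and 7 counts. The 10 macrophage markers also had positive log2 fold changes in macrophages (median 0.21), as did 4764 of all 9393 genes tested. Dendritic cell markers, led by *Cd209a*, came to between 3.55 and 5.18 CPM with PBS and between 6.75 and 10.0 CPM with CGRP. The B and T lymphocyte markers came to between 31.6 and 34.3 CPM and between 37.5 and 40.5 CPM, nearly all of it *Cd79b*, with *Cd3e* at 0 in every macrophage library. In neutrophils, the 11 heat shock genes, which answer to stress and handling and were led by *Hspa8*, summed to 779, 764 and 772 CPM with PBS and to 891, 907 and 843 CPM with CGRP. The part of these lists in the AP-1 results was not tested. No marker of the 7 lists of cell types passed with limma-voom in neutrophils (0 of 44 tested, 3 at an unadjusted p under 0.05) or in macrophages (0 of 27, 6 at an unadjusted p under 0.05). Over all genes tested, 1257 of 9819 in neutrophils and 1860 of 9393 in macrophages had an unadjusted p under 0.05. None of the markers passed with edgeR or DESeq2, which gave no adjusted p for 10 of the 44 in neutrophils. Of the heat shock genes, 0 of 9 passed in neutrophils with limma-voom, edgeR or DESeq2 (1 at an unadjusted p under 0.05, 2 without an adjusted p in DESeq2; 2.53% of all genes passed), and 1 of 8 passed in macrophages (7.43% of all genes), *Hspd1*, a mitochondrial chaperone that fell by 0.53 on the log2 scale (adjusted p = 0.0496). The share of counts from mitochondrial genes was 1.48%, 1.44% and 1.57% in the PBS macrophages and 1.23%, 1.38% and 1.34% in the CGRP macrophages, without overlap, and lay between 1.24% and 1.49% in the neutrophil libraries. Its part in the AP-1 results was not tested either.

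The CGRP effect differed between the cell types for *Jun*, *Fosl2* and *Junb*. Differences are given as the log2 fold change in macrophages minus that in neutrophils, from the interaction term of a fit over all 12 libraries. That term passed for 3 of the 7 members tested (2 higher and 1 lower in macrophages) and for 2.36% of 10694 genes, 1.21% as higher and 1.15% as lower. These were 129 and 123 genes, or 88 and 154 without TMM scaling, which moved the median difference of all genes from 0.020 to -0.098. *Jun* differed by -1.64 (SE 0.226, adjusted p = 9.72e-05), its log2 fold change being -1.80 in macrophages and -0.14 in neutrophils. *Fosl2* differed by 1.66 (SE 0.240, adjusted p = 1.95e-04), with 1.81 in macrophages beside 0.16 in neutrophils. For *Junb*, macrophages exceeded neutrophils by 0.74 (SE 0.171, adjusted p = 0.0168). The *Junb* difference did not pass without TMM scaling (0.63, adjusted p = 0.123), nor without neutrophil PBS replicate 3 (0.0800) or CGRP replicates 1 (0.0572) or 2 (0.0556), nor without macrophage PBS replicate 1 (0.0802) or CGRP replicate 3 (0.0619).

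*Fos* had log2 fold changes of 0.77 in macrophages and 1.30 in neutrophils, and the difference did not pass (-0.52, interval -0.90 to -0.14, adjusted p = 0.177). It passed under 1 of 8 other settings, with library quality weights (-0.58, adjusted p = 0.0446). The differences for *Jund* (0.07, adjusted p = 0.960) and *Batf* (-0.10, adjusted p = 0.923) did not pass either. *Fosl1* entered that fit only through its counts in the CGRP neutrophils, with 3 or 4 counts in every PBS library, so its fitted difference (-1.29, interval -3.06 to 0.48, adjusted p = 0.585) says nothing of how the cell types compare.

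**Figure D3:**
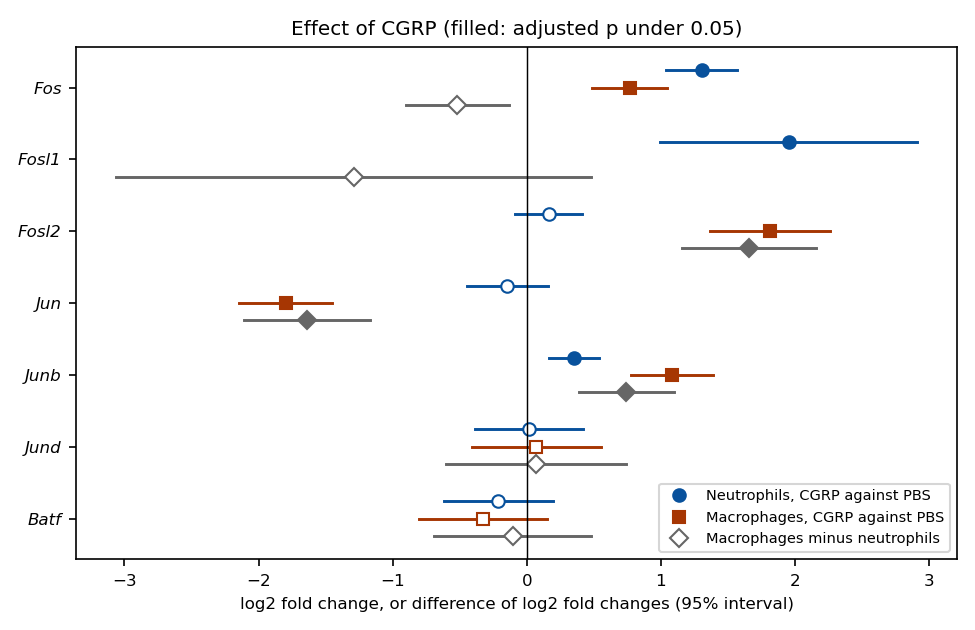
Log2 fold change with CGRP in each cell type, and the macrophage effect minus the neutrophil effect, for the 7 AP-1 genes that could be tested (x axis; lines are 95% intervals, filled symbols have an adjusted p under 0.05). *Jun* lies at -1.80 in macrophages and -0.14 in neutrophils, *Fosl2* at 1.81 and 0.16, and *Fos* lies above 0 in both cell types; *Fosl1* was kept by the filter only through the CGRP neutrophils.

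Before any CGRP, the 2 cell types already differed in their levels of *Jun*, *Fos* and *Fosl2*. These levels are in CPM scaled over the 12 libraries, and cell type, culture in M-CSF and count table cannot be told apart in them. Of the 10694 genes tested, 67.9% differed between PBS macrophages and PBS neutrophils, 32.5% as higher in macrophages and 35.4% as lower, and 3 of the 7 members tested did, 2 higher and 1 lower. The genes that differed were 3472 higher and 3791 lower, or 3720 and 3441 without TMM scaling. For these 3 members the groups did not overlap, as for 70.5% of all genes tested, 33.9% above and 36.6% below. *Jun* was higher in macrophages, at 199 ± 34.9 against 54.4 ± 8.35 CPM (log2 difference 1.87, SE 0.148, adjusted p = 1.39e-10). *Fos* was also higher there, at 158 ± 12.7 against 53.1 ± 6.48 CPM (1.58, SE 0.137, adjusted p = 7.30e-10). *Fosl2* was lower in macrophages, at 17.1 ± 3.69 against 62.6 ± 2.09 CPM (-1.90, SE 0.188, adjusted p = 6.44e-09). *Junb* (-0.15, adjusted p = 0.291), *Jund* (-0.43, adjusted p = 0.0909) and *Batf* (0.05, adjusted p = 0.822) did not pass. *Fosl1*, with 3 or 4 counts in all 6 PBS libraries, stood at the floor in both cell types, and *Fosb* was not tested. *Jund* passed as lower in macrophages without neutrophil PBS replicate 2 (adjusted p = 0.0248) or macrophage PBS replicate 3 (0.0161).

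The order of the 4 groups differed from gene to gene. For *Jun*, the PBS macrophages stood apart at between 167 and 236 CPM, while the CGRP macrophages (between 52.8 and 62.7 CPM), PBS neutrophils (between 45.1 and 61.2) and CGRP neutrophils (between 41.7 and 54.4) overlapped one another. *Fosl2* had the mirror order: the PBS macrophages stood lowest, at between 13.5 and 20.9 CPM, and the CGRP macrophages (between 51.1 and 70.2) overlapped the PBS neutrophils (between 60.7 and 64.8) and the CGRP neutrophils (between 64.5 and 82.4). For both genes, the CGRP macrophages thus lay closer to the neutrophils than to the PBS macrophages. For *Fos*, PBS neutrophils (between 48.7 and 60.5 CPM) stood lowest, followed by CGRP neutrophils (between 107 and 141). PBS macrophages (between 146 and 171) and CGRP macrophages (between 241 and 281) came next, with no overlap between neighbours. Without TMM scaling, neutrophil CGRP replicate 2 (143 CPM) lay above macrophage PBS replicate 2 (140 CPM), so these groups overlapped. For *Junb*, PBS macrophages (between 166 and 218 CPM) and PBS neutrophils (between 194 and 223) overlapped. CGRP neutrophils (between 246 and 279) and CGRP macrophages (between 353 and 455) followed. Without TMM scaling, macrophage PBS replicate 3 (239 CPM) lay above neutrophil CGRP replicate 1 (231 CPM) for *Junb*. *Jund* lay between 23.5 and 51.3 CPM and *Batf* between 12.6 and 21.8 CPM over the 12 libraries.

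Because Fos and Jun proteins act as pairs, the ratios of counts within a library were also described, without a test. These are ratios of RNA, and neither the proteins nor their dimers were measured in these libraries. The ratios compare groups only, since counts of different genes also depend on how well each 3′ end was captured. *Junb* counts per *Jun* count were 0.916, 0.993 and 0.924 in the PBS macrophages and 5.63, 7.15 and 8.61 in the CGRP macrophages. In neutrophils the same ratio was 3.55, 4.29 and 3.64 with PBS and 4.85, 6.17 and 5.13 with CGRP. The PBS macrophages were thus the group with the lowest *Junb* to *Jun* ratio, and the CGRP macrophages overlapped the CGRP neutrophils. *Fos* counts per *Jun* count went from 0.881, 0.874 and 0.662 to 4.49, 5.28 and 4.56 in macrophages and from 0.856, 1.11 and 0.988 to 2.78, 3.29 and 1.98 in neutrophils. *Fosl2* counts per *Fos* count moved in opposite directions, up in macrophages from 0.0988, 0.0924 and 0.133 to 0.182, 0.250 and 0.236, and down in neutrophils from 1.25, 1.25 and 1.07 to 0.462, 0.471 and 0.767. A ratio within a library shows unequal change of its 2 genes and depends on no scaling between libraries.

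**Figure D4:**
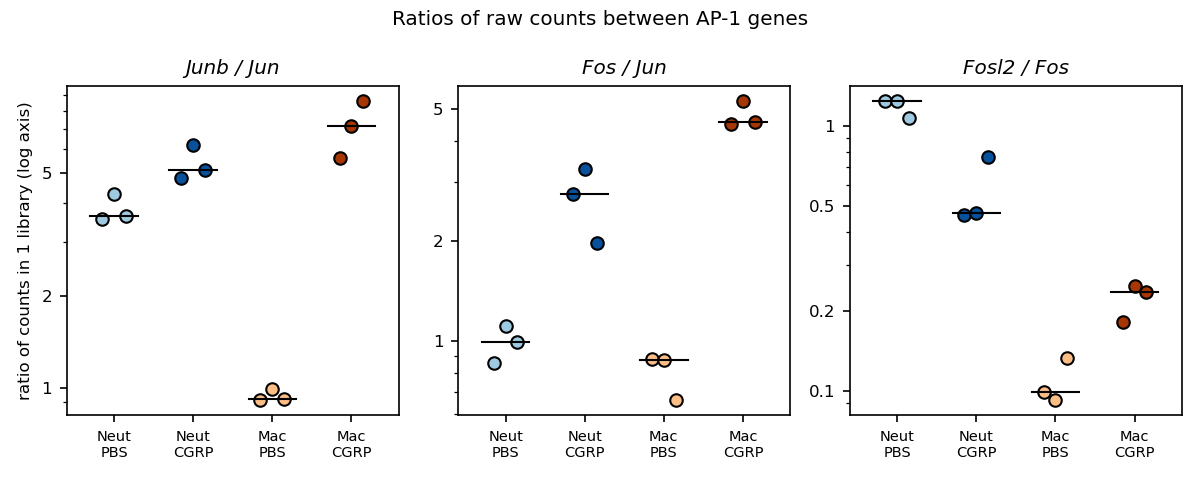
Ratios of raw counts of 2 AP-1 genes in the same library (y axis, logarithmic); points are libraries and lines are group medians, and Neut and Mac stand for neutrophils and macrophages. *Junb* per *Jun* is below 1 in the 3 PBS macrophage libraries and at least 3.55 in the other 9.

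Over the 12 libraries, *Jun* and *Fosl2* ran opposite to each other (Pearson r = -0.937 of log2 CPM), as a description of 4 groups whose libraries share cell type and treatment. Among 10693 other genes, the profile of *Jun* was most like those of *Frmd6* (r = 0.968), *Sox4* (0.959) and *Atp6v1b2* (0.958). For *Fosl2* they were *Mxi1* (0.983), *Gpd2* (0.981) and *Arrdc3* (0.981). *Fos* ran most like *Clec4d* (0.972), *Slc37a3* (0.964) and *Slc25a3* (0.961), and *Junb* most like *Cyth1* (0.962), *Gpr35* (0.958) and *Wbp1l* (0.954). The closest profiles were looser for *Jund* (*Furin*, 0.923; *Pip4k2b*, 0.908; *Cab39*, 0.906), *Batf* (*Polr2c*, 0.889; *Zbp1*, 0.881; *B3galt6*, 0.856) and *Fosl1* (*Rbm48*, 0.863; *Cdadc1*, 0.827; *Trib1*, 0.811).

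Other bZIP proteins that pair with Fos or Jun were listed as 11 genes. In macrophages 2 of the 9 tested fell (3.97% of all genes) and none rose, with a median log2 fold change of 0.04 beside 0.0047 over all genes tested. With edgeR and with DESeq2, 3 of the 9 passed. *Atf3*, a stress-induced repressor, went from 254 ± 32.2 to 55.8 ± 10.9 CPM (log2 fold change -2.17, SE 0.165, adjusted p = 5.61e-07). *Batf3*, a Jun partner known from dendritic cells, went from 26.7 ± 2.64 to 3.39 ± 1.59 CPM (-2.92, SE 0.358, adjusted p = 5.82e-05). *Batf3* passed the filter only through the PBS libraries in which it was higher, so its call among the 2 is a description. In neutrophils 0 of the 8 tested passed with limma-voom, edgeR or DESeq2 (2 at an unadjusted p under 0.05; median 0.21), beside 2.53% past the threshold, 1257 of 9819 at an unadjusted p under 0.05 and a median of 0.00080 over all genes. There *Atf3* stayed between 13.8 and 20.4 CPM, and its effect differed between the cell types by -2.35 (adjusted p = 1.06e-05). *Maf*, a large Maf protein of macrophages, passed for that difference (-1.11, adjusted p = 0.0491), with log2 fold changes of -0.50 in macrophages (adjusted p = 0.0667) and 0.63 in neutrophils (adjusted p = 0.189).

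Kinases and transcription factors that act on Fos and Jun genes were listed as 28 genes, of which 2 of 25 tested passed in neutrophils (2.53% of all genes) and 2 of 24 in macrophages (7.43% of all genes; median log2 fold changes 0.08 and 0.07). In neutrophils *Map2k3*, a kinase that activates p38, rose from 165 ± 6.80 to 218 ± 8.47 CPM (0.40, adjusted p = 0.0115), and *Map3k8*, a kinase upstream of ERK, fell from 31.03 ± 1.31 to 16.7 ± 3.16 CPM (-0.91, adjusted p = 5.11e-03). In macrophages *Elk3*, a partner of serum response factor, rose from 21.3 ± 4.34 to 37.3 ± 5.85 CPM (0.79, adjusted p = 0.0282). *Crtc3*, a CREB coactivator, rose from 13.8 ± 6.94 to 42.0 ± 15.5 CPM (1.64, adjusted p = 5.43e-03).

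Factors that end the AP-1 response, by RNA decay, protein turnover or removal of phosphate from MAP kinases, were listed as 14 genes. *Dusp5*, a nuclear phosphatase of ERK, rose in both cell types: from 4.61 ± 1.01 to 12.9 ± 2.03 CPM in neutrophils (1.49, adjusted p = 4.87e-03) and from 2.98 ± 1.98 to 30.4 ± 3.67 CPM in macrophages (3.54, adjusted p = 2.57e-05). In macrophages *Dusp5* passed the filter only through the CGRP libraries in which it was high. That call is thus a description, and 3.54 is not a measured size. The fitted difference between cell types of 2.06 (adjusted p = 0.0242) rests on that size and is a description too. *Dusp1*, which acts on p38 and JNK, rose in neutrophils from 82.8 ± 2.36 to 110 ± 2.18 CPM (0.41, adjusted p = 0.0249). In macrophages *Dusp6*, a cytoplasmic phosphatase of ERK, fell from 16.5 ± 1.54 to 7.88 ± 2.87 CPM (-1.05, adjusted p = 0.0391). *Dusp4* fell from 7.43 ± 0.698 to 2.42 ± 1.25 CPM (-1.56, adjusted p = 0.0335). It passed the filter only through the PBS libraries in which it was higher, so its call is also a description. The other members did not pass, so that 2 of 12 passed in neutrophils and 3 of 13 in macrophages (medians 0.01 and -0.06), beside 2.53% and 7.43% of all genes tested. With DESeq2, 0 of these 12 passed in neutrophils (2 had no adjusted p) and 2 of 13 in macrophages. *Zfp36*, which binds AU-rich elements, had log2 fold changes of -0.05 in neutrophils (adjusted p = 0.879) and 0.22 in macrophages (adjusted p = 0.425).

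Genes known to carry AP-1 sites were listed as 27 genes and moved in both directions in macrophages, where 9 of 20 tested passed, 2 higher and 7 lower (median -0.25), beside 3.46% and 3.97% of all genes. The cytokine *Il1b* rose from 4.41 ± 1.00 to 57.4 ± 6.37 CPM (3.71, adjusted p = 6.41e-07) and the growth factor *Vegfa* from 8.23 ± 3.42 to 44.2 ± 4.22 CPM (2.52, adjusted p = 1.70e-05). The cell cycle gene *Ccnd1* fell from 74.5 ± 11.1 to 16.7 ± 1.65 CPM (-2.15, adjusted p = 3.93e-06) and the chemokine *Ccl2* from 50.4 ± 6.43 to 11.9 ± 2.30 CPM (-2.05, adjusted p = 2.04e-05). The protease gene *Plau* fell from 20.8 ± 6.02 to 2.03 ± 1.78 CPM (-3.57, adjusted p = 3.11e-04), and the cytokine *Tnf* passed as lower (adjusted p = 0.0149), with 24, 13 and 10 counts with PBS and 3, 3 and 1 counts with CGRP. *Plau* and *Tnf* passed the filter only through the PBS libraries in which they were higher, so their calls among the 7 are descriptions. With CGRP *Plau* stood near the floor, so -3.57 is not a measured size. Smaller falls were measured for *Mmp13* (-1.55, adjusted p = 0.0358), the heme-degrading *Hmox1* (-0.62, adjusted p = 8.52e-03) and *Mmp12* (-0.57, adjusted p = 0.0463), whose groups overlapped. In neutrophils 1 of 21 tested passed (2.53% of all genes), *Il1b*, from 91.2 ± 6.72 to 190 ± 26.6 CPM (1.06, adjusted p = 3.22e-06; list median 0.19). The difference between cell types passed for 6 of 22 of these genes (2.36% of all genes), including *Il1b* (2.66, adjusted p = 1.26e-05) and *Ccl2* (-2.10, adjusted p = 2.94e-05).

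Immediate early genes outside the family also split in macrophages, with 5 of 12 tested higher and 3 lower (median -0.0089), beside 3.46% and 3.97% of all genes. *Nr4a2*, an orphan nuclear receptor, rose from 2.44 ± 1.45 to 41.3 ± 2.94 CPM (4.22, adjusted p = 3.38e-06). It passed the filter there only through the CGRP libraries in which it was high. Its call among the 5 is thus a description, and 4.22 is not a measured size. The others were *Ier3* (1.39, adjusted p = 4.17e-04), *Btg2* (1.34, adjusted p = 8.28e-06), *Nr4a1* (1.00, adjusted p = 9.96e-03) and *Ier2* (0.73, adjusted p = 0.0224). *Egr2*, a zinc finger factor, fell from 82.4 ± 2.35 to 14.7 ± 2.30 CPM (-2.46, adjusted p = 8.94e-07), together with *Myc* (-1.88, adjusted p = 9.48e-04) and *Klf6* (-0.63, adjusted p = 5.30e-03). *Jun* was therefore 1 of several such genes that were lower 4 h after CGRP. In neutrophils 2 of 11 tested passed, beside 2.53% of all genes: *Nr4a2* rose from 8.44 ± 0.267 to 23.7 ± 2.39 CPM (1.47, adjusted p = 2.79e-04) and *Klf4* fell from 49.3 ± 2.42 to 28.8 ± 4.63 CPM (-0.76, adjusted p = 4.02e-03), with a list median of -0.0080. *Egr1*, often induced with *Fos*, had log2 fold changes of 0.15 in neutrophils (adjusted p = 0.909) and -0.25 in macrophages (adjusted p = 0.731).

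**Figure D5:**
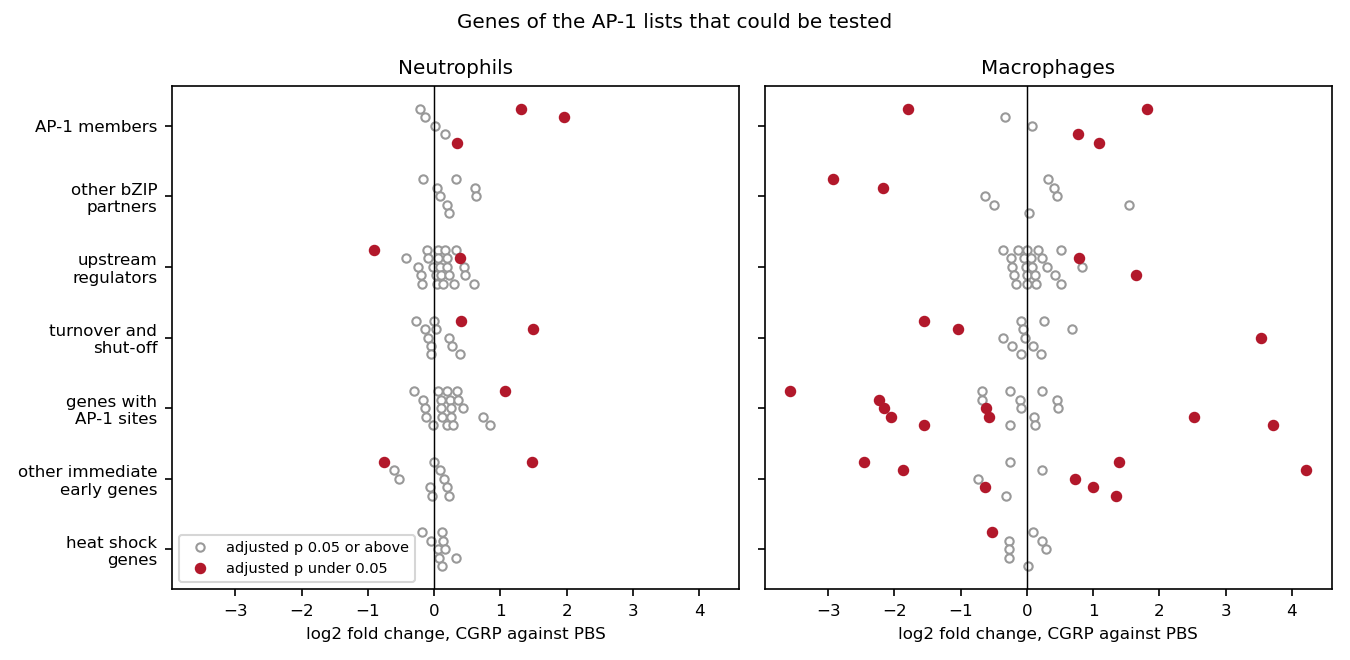
Log2 fold change with CGRP (x axis) of each gene that could be tested in the AP-1 members and 6 related lists, in neutrophils (left) and macrophages (right); each point is 1 gene and filled points have an adjusted p under 0.05. In macrophages, genes with AP-1 sites and other immediate early genes have filled points on both sides of 0, 2 higher with 7 lower and 5 higher with 3 lower.

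Other genes overlap the AP-1 genes on the opposite strand. *Junos* shares 689 bases with *Jun* and had at most 8 counts in any library, and *Gm11175*, inside *Jund*, had at most 1. *Prdx2* ends within the *Junb* gene but outside the exon of its longest coding transcript, and its log2 fold change was 0.07 in neutrophils (adjusted p = 0.829) and 0.23 in macrophages (adjusted p = 0.450). Apart from *Fosl1*, none of the members shared a 31-base sequence of its last 500 bases with another annotated gene.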

How the data were processed

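RNA was sequenced by poly-A-primed libraries with molecular identifiers. The authors ran nfCore/RNAseq with its identifier function, and their processing notes name GRCm38, STAR for alignment and featureCounts for counting. The deposited values are raw gene counts, in 1 table per cell type. The annotation release and strand setting are not given in the sources used here. The 12 columns were matched to samples by name, and no 2 libraries were identical. Each cell type was fitted on its 6 libraries with TMM and limma-voom, as the paper's methods name, after edgeR's filterByExpr, which was chosen here (two-sided, Benjamini–Hochberg over all genes tested, threshold 0.05). CPM in that fit is per count of kept genes after TMM, whereas sums over lists are per library total. The interaction and the comparison of PBS groups came from 1 fit over the 12 libraries. Low-count genes were removed by filterByExpr, so *Fosb* was tested nowhere and *Fosl1* not in the fit of the macrophage libraries. The members and gene lists were chosen with earlier results of these data known. All 8 members are described; from the other lists, genes with an adjusted p under 0.05 for CGRP in either cell type are named, and *Maf*, *Zfp36* and *Egr1* were named after their values were seen. Likeness is the Pearson correlation of log2 CPM (prior count 2), naming the 3 highest. As alternatives, DESeq2, the quasi-likelihood test of edgeR, size factors from DESeq2 within voom, no TMM, 2 other filters, quality weights, a replicate block, a single fit for both cell types and leaving out each library were run. Sequences came from RefSeq (GRCm38.p6) and GENCODE M21, in which 52489 of 52636 gene identifiers were found. The fits were tested on simulated counts. Intervals come from the limma fit and reflect the spread between libraries, whereas floors cover counting error only. R 4.3.3, limma 3.58.1, edgeR 4.0.16, DESeq2 1.42.0, Python 3.11.15, pandas 2.3.3 and matplotlib 3.10.9 were used.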

Additional observations from a re-analysis of the deposited data

Results flagged for a closer look

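The response to CGRP differed between the 2 cell types for 3 AP-1 genes in the interaction term of the 12-library fit. For *Jun* the log2 fold change in macrophages minus that in neutrophils was -1.64 (adjusted p = 9.72e-05), lower in all 3 CGRP macrophage libraries than in the 3 PBS libraries. For *Fosl2* it was 1.66 (adjusted p = 1.95e-04), with all 3 CGRP macrophage libraries higher. For *Junb* it was 0.74 (adjusted p = 0.0168), with all 3 CGRP libraries higher in both cell types and the larger step in macrophages. The *Junb* difference did not pass without TMM scaling (adjusted p = 0.123) or without any one of 5 of the 12 libraries (adjusted p between 0.0556 and 0.0802).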

How the results depend on the processing

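The 4 calls in macrophages, the *Fos* call in neutrophils and the *Jun* and *Fosl2* differences between cell types passed with the same sign under every alternative run and without any single library. The limits are the low counts of *Fosl1* and *Fosb*, the small step of *Junb* in neutrophils and its difference between cell types, and 3 libraries a group at 2002559 to 3631989 counts. For the fits that gave another count of genes, the single fit over all 12 libraries passed 137 genes in neutrophils and 1050 in macrophages, quality weights passed 1406 in macrophages and 520 for the difference between cell types, and the replicate block passed 406 for that difference; the cause was not tested. Leaving out each library gave between 138 and 234 genes in neutrophils, 347 and 765 in macrophages, 149 and 328 for the difference and 6889 and 7559 between the PBS groups. Counts moved by over 1.5 times without neutrophil PBS replicate 1 (138) or 2 (138) or CGRP replicate 2 (153), without macrophage PBS replicate 1 (347) or CGRP replicate 2 (348) or 3 (439), and, for the difference, without macrophage PBS replicate 1 (149). DESeq2 gave no adjusted p for *Fosl1* in neutrophils. *Jund* changed sign for the difference between cell types without TMM scaling (-0.050). Without single libraries *Jund* ranged between -0.19 and 0.21 in neutrophils, -0.062 and 0.31 in macrophages and -0.16 and 0.30 for the difference, and *Batf* between -0.014 and 0.17 for the PBS groups; none of these passed. *Jund* between the PBS groups passed with quality weights (-0.51, adjusted p = 0.0294) and with the replicate block (-0.42, adjusted p = 0.0304). Libraries of the same replicate number deviated together only weakly (r = 0.040, -0.014 and 0.14 in neutrophils; 0.061, -0.18 and 0.28 in macrophages), and whether they share mice or a batch is not known from the labels. Replicate 3 had the lowest total count in each of the 4 groups. The block passed 289 genes in neutrophils, 1007 in macrophages and 7434 between the PBS groups.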
